A study of Mus musculus with 2 samples.

Results

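Osteoclasts are the multinucleate cells that resorb bone. Cells with their transcripts were taken from single-cell RNA counts of SKG mouse enthesis, the junction of the Achilles tendon with the heel bone. The number of nuclei per cell was not measured. The cells were chosen by measured expression: a cell was counted as an osteoclast when Acp5, Atp6v0d2, Ocstamp and Dcstamp together made up at least 0.1% of its UMIs (unique molecular identifiers, each standing for 1 captured transcript molecule), Ctsk made up at least 0.1%, and Col1a1, Col1a2 and Col3a1 together made up less than 0.5%. Of 25430 kept cells, 72 met these limits: 7 of 14483 in the tail suspension library and 65 of 10947 in the non-tail suspension library. They were set against C1q macrophages, cells with at least 0.2% of their UMIs from C1qa, C1qb and C1qc and below the same collagen limit, of which there were 1277 with tail suspension and 1215 without. Because measured expression chose the cells, their levels are given as descriptions, with no test.

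SKG mice carry a mutation in Zap70, a kinase of the T cell receptor, and develop arthritis of autoimmune origin. A tail-suspended animal is held by its tail, so that the hindlimbs carry no load, and the non-tail suspension group was not held in this way. Each group is 1 droplet library of SKG enthesis. The number of animals in a library, their age and sex, and whether disease was induced are not given in the sources used here, so no difference between the libraries has a replicate check.

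In all, 15545 barcodes with 166606774 UMIs were deposited for tail suspension and 11430 barcodes with 121868851 UMIs for non-tail suspension. Kept cells had a median of 8508 UMIs with tail suspension and 4758 without. The libraries shared 47 barcode sequences, and 1 osteoclast barcode also occurred in the other library. Scrublet scores above a cutoff set at the expected doublet rate were given to 5 of the 7 osteoclasts of the tail suspension library. In the non-tail suspension library 0 of the 65 had such scores, against 1735 and 987 of all kept cells with and without tail suspension. The automatic threshold of Scrublet called 1 of the 7 and 0 of the 65. Among all kept cells that threshold called 492 with tail suspension and 0 without. The 0 of the 65 therefore cannot tell whether doublets are among these cells. The tissue was digested with collagenase and strained before loading, and how many large, bone-bound cells such a suspension leaves out was not tested.

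Osteoclasts form when cells of the monocyte lineage, kept alive by CSF1, receive the signal of RANKL through its receptor RANK, induce the transcription factor NFATc1 and fuse. The mature cell seals off a patch of bone with an actin ring, pumps protons across a folded membrane, the ruffled border, to dissolve the mineral, and secretes cathepsin K and other enzymes that digest the collagen underneath. At entheses they are known from the bone erosions of inflammatory arthritis.

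The genes that chose the cells were high together in the 65 osteoclasts of the non-tail suspension library. Acp5, which encodes tartrate-resistant acid phosphatase (chr9:22126727-22135711, minus strand, GRCm38), summed to 10451.5 CPM (counts per 1000000 UMIs of all cells in the group) in osteoclasts, against 146 CPM in macrophages. Its value per cell ran between 0 and 22378 CPM in osteoclasts, with a median of 10280.4 CPM. Ctsk, the collagen-digesting cathepsin K (chr3:95499256-95509362, plus strand), was at 15801 CPM in osteoclasts and 72.3 CPM in macrophages. Atp6v0d2, a subunit of the proton pump linked to fusion, was at 1334 CPM in osteoclasts and 18.8 CPM in macrophages. Ocstamp and Dcstamp, membrane proteins needed for fusion, were at 316 and 204 CPM in osteoclasts and at 1.16 and 0.693 CPM in macrophages. The osteoclasts nearest to the limit on the 4 genes had 0.109%, 0.156% and 0.166% of their UMIs from them, and the nearest cells outside it had 0.0918%, 0.0602% and 0.0588%. For Ctsk the nearest values inside were 0.104%, 0.109% and 0.166%, and those outside 0.0905%, 0.0758% and 0.0513%.

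Sequences upstream of 4 genes are shown for reference, the rule genes Acp5 and Ctsk and Slc9b2 and Oscar, which had the highest ratios over macrophages among genes with at least 100 CPM and a UMI in at least 30% of osteoclasts. They come from RefSeq (GRCm38.p6), run 5′ to 3′ in the direction of the gene and end at the annotated start, except that 10 bases within an annotated exon were cut from the end of the Acp5 window. Capitals mark the motif TCACATG on either strand, the core of the M-box bound by MITF, a transcription factor of osteoclasts and pigment cells.
Acp5 (chr9:22130609-22130848, minus strand): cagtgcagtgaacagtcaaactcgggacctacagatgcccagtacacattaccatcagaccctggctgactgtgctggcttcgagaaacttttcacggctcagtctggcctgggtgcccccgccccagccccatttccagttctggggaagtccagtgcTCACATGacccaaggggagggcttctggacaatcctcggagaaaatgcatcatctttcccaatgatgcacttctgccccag
Oscar (chr7:3616158-3616407, minus strand): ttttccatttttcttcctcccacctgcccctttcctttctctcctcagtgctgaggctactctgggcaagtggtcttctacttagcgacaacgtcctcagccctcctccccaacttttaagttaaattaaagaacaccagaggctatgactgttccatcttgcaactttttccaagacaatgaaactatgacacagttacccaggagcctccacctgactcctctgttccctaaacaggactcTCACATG
Ctsk (chr3:95498960-95499209, plus strand): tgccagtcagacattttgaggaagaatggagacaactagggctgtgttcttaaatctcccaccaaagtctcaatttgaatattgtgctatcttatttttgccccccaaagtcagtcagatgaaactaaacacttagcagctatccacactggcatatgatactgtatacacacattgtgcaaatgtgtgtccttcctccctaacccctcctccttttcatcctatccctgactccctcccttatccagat
Slc9b2 (chr3:135307450-135307699, plus strand): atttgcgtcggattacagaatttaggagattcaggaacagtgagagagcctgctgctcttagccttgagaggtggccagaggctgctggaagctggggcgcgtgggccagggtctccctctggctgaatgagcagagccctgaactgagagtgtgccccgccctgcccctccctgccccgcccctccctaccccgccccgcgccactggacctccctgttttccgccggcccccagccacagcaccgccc
The motif begins at position -91 from the start in Acp5 and at -7 in Oscar, and these letters are not in the Ctsk and Slc9b2 windows. Of 19 genes looked up, 11 had 16 upstream windows of 250 bases in the table, and 2 windows held the motif, against 1150 of 32851 windows of all genes (3.50%). The AP-1 motif TGANTCA was in 0 of the 16 windows and in 6.75% of all windows, and the NFAT core GGAAA was in 10 of the 16 and in 55.6% of all windows, on either strand. The 16 windows include 1 each of the macrophage genes C1qb and C1qc, both with the NFAT core and without TCACATG. Acp5 has 3 annotated starts, and the window shown lies before the one furthest into the gene, whereas the other 2 Acp5 windows do not hold TCACATG. A match describes the letters, and the counts do not say which start is used.

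Osteoclasts made up 0.0483% of kept cells with tail suspension (exact Clopper-Pearson 95% interval 0.0194 to 0.0996) and 0.594% without (0.459 to 0.756). The share with tail suspension divided by that without was -3.62 on the log2 scale (exact interval -4.99 to -2.49). Among osteoclasts and C1q macrophages together, which leaves out the other cell types, they made up 0.545% with tail suspension (0.219 to 1.12) and 5.08% without (3.94 to 6.43), a log2 ratio of tail suspension to non-tail suspension of -3.22 (-4.59 to -2.10). These intervals cover counting error only, and the libraries and the treatments cannot be told apart. The limit on collagen transcripts removed 17 cells with tail suspension and 9 without, and with no such limit 24 and 74 cells qualified. The share remained lower with tail suspension under all 10 other settings tried, at log2 ratios between -5.38 and -2.03.

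**Figure D1:**
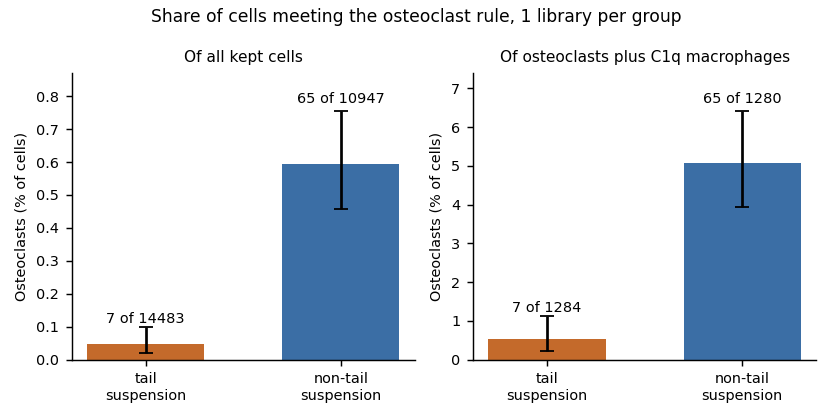
Bars show osteoclasts as a percentage of all kept cells (left) and of osteoclasts plus C1q macrophages (right) in the tail suspension and non-tail suspension libraries, with exact 95% intervals for counting error and the cell counts above them. The bars stand at 0.0483% and 0.594% on the left and at 0.545% and 5.08% on the right, and the intervals do not overlap.

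The 65 osteoclasts of the non-tail suspension library were large in RNA content, with a median of 39489 UMIs and 5339 genes per cell, against 13904 UMIs and 3228 genes in C1q macrophages. Their median mitochondrial share was 6.96%, against 4.06% in macrophages. Of 5247 genes with a mean of at least 20 CPM over both cell groups, 910 (17.3%) were at least 2-fold higher in osteoclasts and 920 (17.5%) at least 2-fold lower, and the median log2 ratio was 0.15. A ratio past 2-fold is a description of 1 library, and each count of a gene list below is to be read against these 2 percentages. The sums rest on 2460226 UMIs in osteoclasts and 17304212 UMIs in macrophages.

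Genes that acidify the resorption site were higher in osteoclasts as a group. Of 16 subunits of the vacuolar proton pump (V-ATPase) with enough counts, leaving out the rule gene Atp6v0d2, 13 were past 2-fold higher and 0 lower, with a median log2 ratio of 1.60. Tcirg1, the a3 subunit that targets the pump to the ruffled border, was at 628 CPM in osteoclasts and 212 CPM in macrophages (log2 ratio 1.57, exact 95% interval 1.48 to 1.65). Atp6v0c, of the proton-carrying ring, was the most abundant subunit at 6085 CPM in osteoclasts and 2172 CPM in macrophages. Atp6v1d, of the central stalk, had the highest ratio of the 16, at 649 CPM in osteoclasts and 108 CPM in macrophages (2.59). The alternative d and a subunits did not share this pattern. Atp6v0d1 was at 151 CPM in osteoclasts and 189 CPM in macrophages, and Atp6v0a2 at 28.05 CPM in osteoclasts and 23.2 CPM in macrophages. Atp6v0a1, below the level set for the list count, had 8 UMIs, or 3.25 CPM, in osteoclasts and 35.1 CPM in macrophages. The kidney forms Atp6v1b1 and Atp6v0a4 had 0 UMIs in osteoclasts and 1 UMI each in macrophages.

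The transporters that work beside the pump were 8 of 10 past 2-fold higher and 0 lower, with a median log2 ratio of 2.76. Slc9b2, a sodium/proton exchanger (chr3:135307700-135345387, plus strand), had the highest ratio of the genes named by rule: 590 CPM in osteoclasts and 0.636 CPM in macrophages (log2 9.86, 9.01 to 10.86). Its value per cell ran between 0 and 1521 CPM, with a median of 553 CPM, in osteoclasts, and the highest macrophage had 111 CPM. The groups overlapped little, as 61 of the 65 osteoclasts lay above that highest macrophage. Car2, the carbonic anhydrase that supplies protons, was at 142 CPM in osteoclasts and 1.44 CPM in macrophages (6.62, 6.03 to 7.27). Slc4a2, the anion exchanger that removes the bicarbonate left behind, was at 132 CPM in osteoclasts and 19.4 CPM in macrophages (2.77). Clcn7, the chloride/proton exchanger, and its partner Ostm1 were at 79.7 and 64.6 CPM in osteoclasts and at 39.1 and 28.5 CPM in macrophages. Snx10, a sorting nexin whose loss causes osteopetrosis in humans, was at 624 CPM in osteoclasts and 88.0 CPM in macrophages (2.83). Rab7, of late endosomes, was at 328 CPM in osteoclasts and 325 CPM in macrophages.

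Among proteases the pattern was split between Mmp9 and the lysosomal cathepsins. Mmp9, the gelatinase B of osteoclasts and neutrophils (chr2:164940780-164955850, plus strand), was at 6199 CPM in osteoclasts and 21.9 CPM in macrophages (8.14). Per cell it ran between 0 and 17737 CPM, with a median of 3988 CPM, in osteoclasts, and 37 of the 65 lay above the highest macrophage, at 3014 CPM. Of 11 proteases besides Ctsk, which the rule used, 1 was past 2-fold higher, Mmp9, and 7 were past 2-fold lower (median -2.51). The lower ones were Ctsb, Ctsl, Ctsd, Ctss, Ctsh, Ctsc and Lgmn. Ctss, which trims the invariant chain of MHC class II, was at 309 CPM in osteoclasts and 4634 CPM in macrophages (-3.91), and Ctsb at 814 CPM in osteoclasts and 4638 CPM in macrophages (-2.51). Mmp14, a membrane-bound collagenase, was at 482 CPM in osteoclasts and 260 CPM in macrophages, and Mmp13 had 1 UMI in all 65 osteoclasts. General lysosomal genes did not share a direction, with 2 of 22 higher and 7 lower past 2-fold: the membrane protein Lamp1 was at 107 CPM in osteoclasts and 1374 CPM in macrophages, and the galactosidase Glb1 at 153 CPM in osteoclasts and 38.8 CPM in macrophages.

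Attachment genes were higher in part, 10 of 26 past 2-fold higher and 2 lower, with a median of 0.40. Itgb3, the beta 3 chain of the vitronectin receptor by which osteoclasts hold on to bone, was at 67.5 CPM in osteoclasts and 1.04 CPM in macrophages (6.02, 5.31 to 6.81), and its partner Itgav at 279 CPM in osteoclasts and 57.8 CPM in macrophages. Itgb3 had a UMI in 58.5% of osteoclasts and 1.23% of macrophages. The kinase Src, needed for the ruffled border, was at 115 CPM in osteoclasts and 32.7 CPM in macrophages (1.81). Cttn, the actin regulator cortactin, was at 40.2 CPM in osteoclasts and 2.02 CPM in macrophages (4.31), and Pstpip1, an adaptor of podosomes, at 668 CPM in osteoclasts and 70.4 CPM in macrophages (3.24). Fusion genes outside the rule were 2 of 10 higher and 2 lower: Cd109 was at 157 CPM in osteoclasts and 10.7 CPM in macrophages (3.87), whereas Cd81 was at 5.69 CPM in osteoclasts and 66.1 CPM in macrophages (-3.54).

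Receptors and transcription factors of the RANK pathway were mixed, with 9 of 26 past 2-fold higher and 4 lower (median 0.37). Nfatc1, the transcription factor that directs osteoclast formation, was at 482 CPM in osteoclasts and 22.6 CPM in macrophages (4.41, 4.25 to 4.58). Per cell Nfatc1 ran between 0 and 1156 CPM in osteoclasts, with a median of 422 CPM, whereas the median macrophage had 0 CPM and the highest 2169 CPM. Tnfrsf11a, which encodes RANK, was at 150 CPM in osteoclasts and 47.9 CPM in macrophages (1.65). Oscar, a collagen-binding receptor that costimulates osteoclasts (chr7:3609813-3616157, minus strand), was at 129 CPM in osteoclasts and 0.289 CPM in macrophages (8.81, 7.57 to 10.44), with a UMI in 38 of the 65 cells. Jdp2, a partner of AP-1, was at 1539 CPM in osteoclasts and 176 CPM in macrophages (3.13), and Ppargc1b, a driver of mitochondrial biogenesis, at 88.6 CPM in osteoclasts and 8.84 CPM in macrophages (3.33). Csf1r, the CSF1 receptor, was at 584 CPM in osteoclasts and 530 CPM in macrophages, and the signalling adaptor Tyrobp at 1900 CPM in osteoclasts and 1943 CPM in macrophages. Trem2, a receptor that signals through it, was at 134 CPM in osteoclasts and 628 CPM in macrophages (-2.23).

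Some markers of the mature cell were low or barely seen. Calcr, the calcitonin receptor, had 1 UMI in the 65 osteoclasts and 0 in macrophages. Siglec15, a sialic acid receptor of osteoclasts, had 12 UMIs in 10 cells and 0 in macrophages. The ratio was 28.1-fold with macrophages set to a floor of 3 UMIs over the group, and its size rests on that floor. Factors that hold back osteoclast formation were 6 of 7 past 2-fold lower and 0 higher (median -1.90). Irf8, a transcription factor of macrophages, was at 10.2 CPM in osteoclasts and 180 CPM in macrophages (-4.15).

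**Figure D2:**
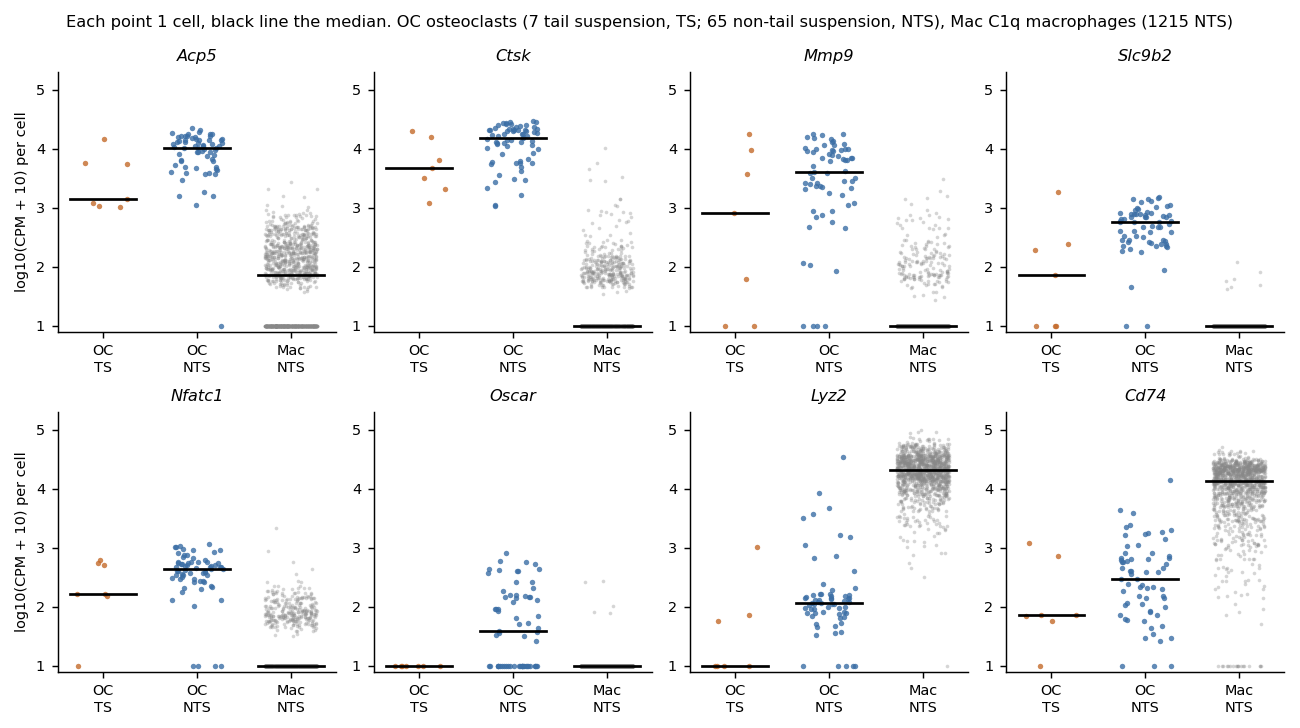
Expression per cell, as log10(CPM + 10), of 2 rule genes and 6 other genes in osteoclasts of the tail suspension library (OC TS, 7 cells), osteoclasts of the non-tail suspension library (OC NTS, 65 cells) and C1q macrophages of the non-tail suspension library (Mac NTS, 1215 cells), with black lines at the medians. Slc9b2 has a median of 553 CPM in the 65 osteoclasts and is near the bottom of the axis in nearly all macrophages, whereas Lyz2 and Cd74 are high in macrophages.

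Nuclear genes of oxidative phosphorylation were higher in osteoclasts almost throughout. Of 77 subunits, 74 were past 2-fold higher and 0 lower, with a median log2 ratio of 1.70, and all 77 ratios were above 0. Together they took 57996 CPM in osteoclasts and 17916 CPM in macrophages. The highest ratios were those of Cyc1 (cytochrome c1), at 762 CPM in osteoclasts and 98.5 CPM in macrophages (2.95), and Cycs (cytochrome c), at 1090 CPM in osteoclasts and 182 CPM in macrophages (2.58). The lowest was that of Ndufa7, of complex I, at 263 CPM in osteoclasts and 169 CPM in macrophages (0.64). Against the 217 macrophages with at least 20000 UMIs, 71 of the subunits were past 2-fold higher. Total UMIs and mitochondrial share per cell were higher in osteoclasts as well. With cells of at most 10% mitochondrial UMIs, 73 of the subunits were past 2-fold higher, and without mitochondrial UMIs in the totals 75 were. The part of the mitochondrial share was not tested further.

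Other energy genes were less uniform. Of 17 genes of glycolysis and phosphocreatine, 6 were past 2-fold higher and 1 lower (median 0.74). Ckb, the brain-type creatine kinase that regenerates ATP, was at 2016 CPM in osteoclasts and 69.5 CPM in macrophages (4.86, 4.77 to 4.95), whereas the lactate exporter Slc16a3 was at 38.6 CPM in osteoclasts and 98.6 CPM in macrophages (-1.35). Iron genes were 3 of 9 higher and 3 lower: Tfrc, the transferrin receptor, was at 235 CPM in osteoclasts and 25.1 CPM in macrophages (3.23), and Fth1, the ferritin heavy chain that stores iron, at 6062 CPM in osteoclasts and 23080 CPM in macrophages (-1.93). Of 9 factors by which osteoclasts signal to other bone cells, 2 were past 2-fold higher and 4 lower. The higher ones were Sphk1, which makes sphingosine 1-phosphate, at 34.5 CPM in osteoclasts and 11.6 CPM in macrophages, and Sema4d, a semaphorin that restrains osteoblasts, at 139 CPM in osteoclasts and 55.0 CPM in macrophages.

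Macrophage genes were low in osteoclasts as a group. All 17 macrophage identity genes with enough counts, of 22 on the list, were past 2-fold lower, with a median of -4.90. The comparator was chosen as macrophages, and a gene can reach the level for this count through macrophages alone. The direction of this list is therefore largely built into the comparison. Adgre1, which encodes F4/80, had 10 UMIs, or 4.06 CPM, in osteoclasts and 254 CPM in macrophages (-5.97, -7.03 to -5.09). Lyz2, lysozyme, was at 399 CPM in osteoclasts and 24158 CPM in macrophages (-5.92), and Apoe, of lipid transport, at 713 CPM in osteoclasts and 32891 CPM in macrophages (-5.53). Genes of MHC class II, which presents peptides to T helper cells, were 7 of 7 past 2-fold lower (median -4.36): the invariant chain Cd74 was at 780 CPM in osteoclasts and 13398 CPM in macrophages (-4.10). A single osteoclast carried 31.4% of all MHC class II UMIs of the 65 cells, and this cell also had 0.655% of its UMIs from C1q genes. Without the 2 osteoclasts that also passed the C1q limit, 931 genes were past 2-fold higher and 926 lower.

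Inflammatory genes were low as well. Of 15 cytokines and chemokines, 14 were past 2-fold lower and 1 higher (median -3.70). The higher one was Ccl9, a chemokine that osteoclasts are known to make, at 1482 CPM in osteoclasts and 526 CPM in macrophages (log2 ratio between 1.44 and 1.55, exact 95% interval). Il1b was at 147 CPM in osteoclasts and 1116 CPM in macrophages (-2.92), and Tnf at 15.9 CPM in osteoclasts and 221 CPM in macrophages (-3.80). Interferon-inducible genes were 11 of 15 past 2-fold lower and 0 higher (median -1.44), such as Cxcl9 at 5.28 CPM in osteoclasts and 282 CPM in macrophages (-5.74). This count was 6 when macrophages of both libraries were the comparator.

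**Figure D3:**
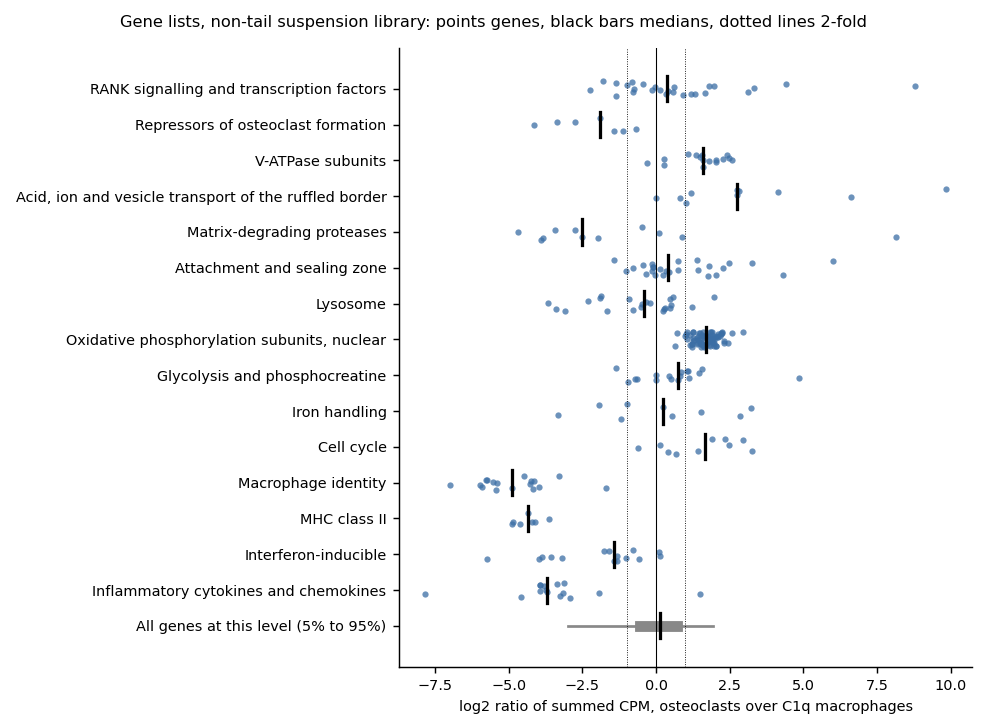
Log2 ratio of osteoclasts over C1q macrophages in the non-tail suspension library for each gene with enough counts (points) in 15 gene lists, with list medians as black bars, and at the bottom the 5% to 95% range, quartiles and median of all 5247 genes. Oxidative phosphorylation (median 1.70), V-ATPase (1.60) and ruffled border transport (2.76) lie to the right, and macrophage identity (-4.90), MHC class II (-4.36) and inflammatory genes (-3.70) to the left.

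Among the genes named by size of ratio alone, several are less known in osteoclasts. Serpind1, heparin cofactor II, was at 123 CPM in osteoclasts and 0.693 CPM in macrophages (7.47), and Bdh2, a short-chain dehydrogenase, at 316 CPM in osteoclasts and 3.12 CPM in macrophages (6.66). The unconventional myosin Myo1d was at 102 CPM in osteoclasts and 0.751 CPM in macrophages (7.08). Cd200, a membrane glycoprotein whose receptor restrains myeloid cells, was at 219 CPM in osteoclasts and 2.14 CPM in macrophages (6.68). Kbtbd11, Coq8a (a kinase-like protein of coenzyme Q synthesis), Nudt22, Pheta1 and Tmem267 followed, with ratios between 4.74 and 6.98. At the other end Ccl8, a monocyte chemokine, was at 19.1 CPM in osteoclasts and 6231 CPM in macrophages (-8.35), and Selenop, the selenium transport protein, at 18.7 CPM in osteoclasts and 2398 CPM in macrophages (-7.00). Ccl12 and Il18bp had 3 UMIs each in osteoclasts, with log2 ratios of -7.83 (-10.11 to -6.29) and -7.20 (-9.48 to -5.65). Vcam1, Pld4, Ccl5, Pf4, Aif1, Ly86, P2ry6 and Tmem176b were lower as well, at ratios between -6.64 and -5.49. Sizes at this end rest on few UMIs and depend on how cells are weighted. With cells thinned to 2000 UMIs, Ccl12, Il18bp and Pld4 had 0 UMIs in osteoclasts. Their ratios of -3.72, -2.72 and -3.36 were then set by the floor of 3 UMIs and are bounds. As a mean over cells the ratio was -7.73 for Ccl12, -2.65 for Il18bp and -3.09 for Pld4. For Il18bp and Pld4 the osteoclast mean rests largely on 1 cell of 604 UMIs, at 1656 CPM of each.

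**Figure D4:**
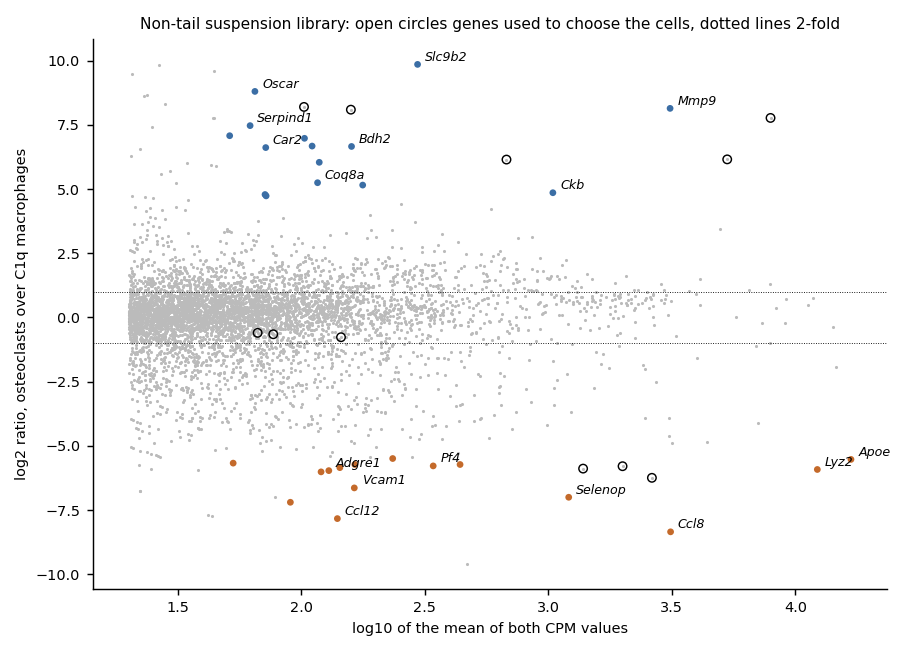
Each grey point is a gene with a mean of at least 20 CPM in the non-tail suspension library, placed by the log10 of its mean CPM (horizontal) and its log2 ratio of osteoclasts over C1q macrophages (vertical). Blue and orange points are the 15 named genes on each side, up to Slc9b2 at 9.86 and down to Ccl8 at -8.35, and open circles are genes used to choose the cells.

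Markers of other cell types were low in the osteoclasts of the non-tail suspension library. Erythroid markers summed to 2.44 CPM, B cell markers to 7.72 CPM, T cell markers to 14.2 CPM, endothelial and mural markers to 5.28 CPM, and mast cell and keratinocyte markers to 1.22 CPM. Cd79a, Cd4, Cd8a, Alas2, Krt5, Krt14, Bglap, Ibsp and Alpl had 0 UMIs, but other members of each list had some. Members at 0 UMIs were 2 of 5 erythroid, 2 of 6 B cell, 3 of 7 T cell and 0 of 5 endothelial and mural markers. They were 4 of 5 mast cell and keratinocyte, 3 of 12 fibroblast and osteoblast, and 0 of 10 neutrophil markers. Fibroblast and osteoblast markers summed to 175 CPM in osteoclasts and 361 CPM in macrophages, and neutrophil markers to 694 CPM in osteoclasts and 3418 CPM in macrophages. A single cell held 40.5% of the neutrophil marker UMIs of the 65 osteoclasts, and the 3 highest cells held 64.6%. These markers were at 12175 CPM in the highest cell and 10728 CPM in the next, and the median osteoclast had 259 CPM.

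The osteoclasts were not uniform. Over the 61 cells of the non-tail suspension library with at least 2000 UMIs, the 4 rule genes made up between 0.174% and 2.44% of UMIs, and genes of the resorption machinery followed them. Spearman's rho with the 4-gene share was 0.84 for Ctsk, 0.90 for the summed V-ATPase subunits, 0.82 for the transporters, 0.77 for lysosomal genes and 0.75 for the proteases other than Ctsk. It was 0.02 for total UMIs and 0.66 for the mitochondrial share. These correlations are over 61 cells that share a library and a total per cell, and are given as descriptions.

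Split by that share into 21, 20 and 20 cells, the resorption genes stepped up. Mmp9 was at 1916 CPM in the lower, 6196 CPM in the middle and 10734 CPM in the upper cells, and Ckb at 384, 2304 and 3452 CPM in the same order. Oscar was at 16.3, 106 and 271 CPM and Itgb3 at 18.7, 51.1 and 135 CPM. Tcirg1 was at 356, 642 and 902 CPM, and Clcn7 at 38.5, 65.1 and 137 CPM. Car2, at 167, 125 and 132 CPM, and Src, at 109, 140 and 96.9 CPM, did not follow, with rho of -0.01 and -0.04. Nfatc1 was at 350, 523 and 583 CPM and Tnfrsf11a at 114, 185 and 155 CPM. Outside the lists the closest followers were Cd68, a lysosomal membrane protein, with rho of 0.84, and Hexa, a lysosomal hexosaminidase, with 0.81.

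Cell cycle genes and some others ran the opposite way. The most negative rho values were those of the elongation factor subunit Eef1g (-0.81), the RNA-binding protein Hnrnpa1 (-0.77) and the translation factor Eif5a (-0.73). Summed cell cycle genes had a rho of -0.66. Mki67, a nuclear protein of cycling cells, was at 146, 6.38 and 3.68 CPM in the lower, middle and upper cells, and Stmn1, a microtubule regulator, at 180, 0 and 1.23 CPM. Cells with at least 5 Mki67 UMIs numbered 6, all of them among the lower 21, with a median 4-gene share of 0.499% (0.238% to 0.788%), against a median of 1.32% in the other cells. Cell cycle genes were 6 of 10 past 2-fold higher than in macrophages and 0 lower over all 65 osteoclasts. Without these 6 cells the counts were 0 and 2. Whether the 6 are precursors rather than mature osteoclasts was not tested.

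**Figure D5:**
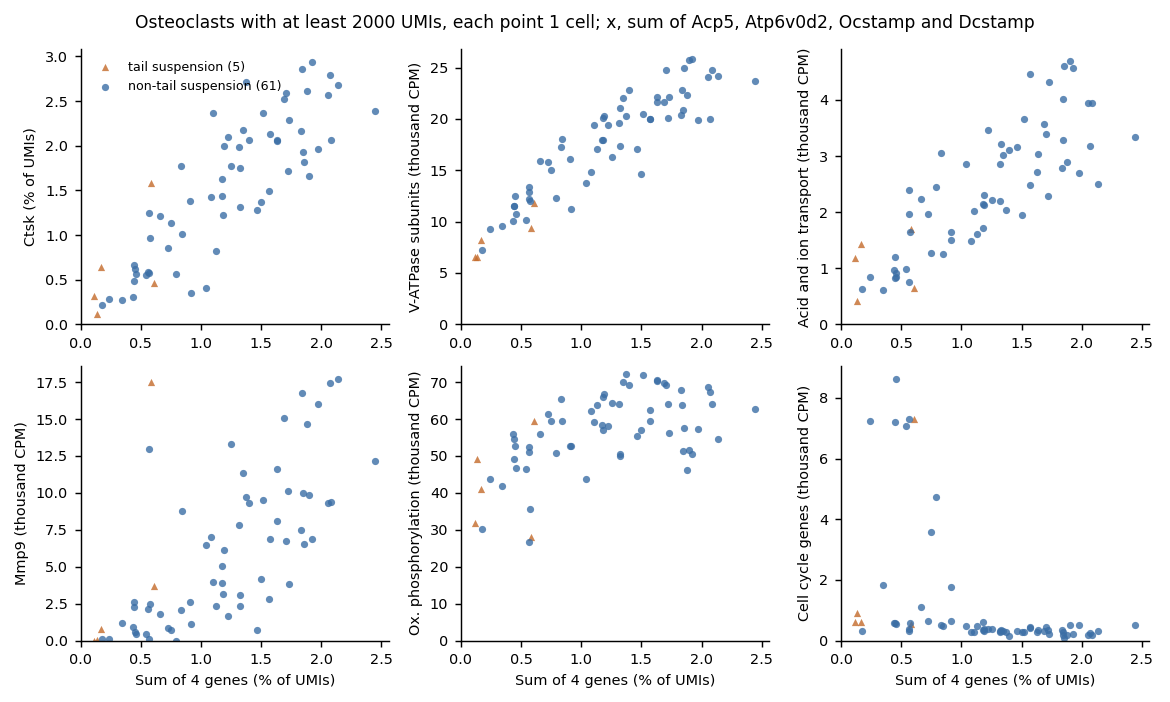
Osteoclasts with at least 2000 UMIs, 5 of the tail suspension library (triangles) and 61 of the non-tail suspension library (circles), placed by the summed share of Acp5, Atp6v0d2, Ocstamp and Dcstamp (horizontal, % of UMIs) and by Ctsk (% of UMIs) or by the CPM of other genes and lists (vertical, divided by 1000). Ctsk, V-ATPase, transporters and Mmp9 climb with the share (rho 0.84, 0.90, 0.82 and 0.76 in the circles), and cell cycle genes are high at its low end.

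The 7 cells of the tail suspension library that met the rule lay mostly below this range, which began at 0.174%, or in its lower part. Their 4-gene shares were 1.57%, 0.608%, 0.582%, 0.166%, 0.133%, 0.112% and 0.101%, and their totals in the same order were 1654, 32543, 16496, 21064, 19487, 16007 and 986 UMIs. Mmp9 was at 9674, 3687, 17519, 807, 51.3, 0 and 0 CPM in these cells, and Nfatc1 at 605, 154, 546, 142, 154, 499.8 and 0 CPM. The third cell therefore had Mmp9 near the highest value of the other library, and the last had 1 UMI of the 4 genes, 2 of Ctsk and 22 of Prg4, the lubricin gene of lining fibroblasts. The second cell had 7313 CPM of cell cycle genes, and the last 7099 CPM on a total of 986 UMIs. Oscar, Itgb3, Calcr and Siglec15 had 0 UMIs in the 7 cells, where a floor of 3 UMIs corresponds to 27.7 CPM. Slc9b2 was at 1814, 0, 182, 237, 0, 62.5 and 0 CPM.

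With so few cells no level was compared between the libraries. C1q genes were at most 0.00949% of UMIs in any of the 7. Summed macrophage identity genes were at 605, 1229, 1394, 5554, 1745, 625 and 3043 CPM in the same order of cells, and 5 of the 7 lay above 784 CPM, the median of the 65 osteoclasts without tail suspension. Their part in the low 4-gene shares was not tested. The osteoclast label rests on fewer markers here than in the other library. There, 4 of the 65 cells had fewer than 2000 UMIs, and 3 of those had 3 or fewer UMIs of the 4 genes. The smallest, of 604 UMIs, had 1 UMI of the 4 genes, 1 of Ctsk and 39735 CPM of macrophage identity genes. With cells of at least 2000 UMIs, 5 remained with tail suspension and 61 without, a log2 ratio of -3.97.

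Transcripts of the osteoclast genes were also found in other cells, at lower levels than in osteoclasts. Lymphocytes and neutrophils were taken as cells that should lack them, apart from Mmp9 in neutrophils. The parts of free RNA and of the cells' own expression were not tested. In lymphocytes Acp5 had a UMI in 23.3% of 910 cells with tail suspension and in 47.1% of 563 cells without, at median depths of 3600 and 5327 UMIs, and its level was 63.6 CPM with tail suspension and 115 CPM without. In C1q macrophages Acp5 had a UMI in 25.4% of cells with tail suspension and 57.4% without, at median depths of 9636 and 13904 UMIs, and its level was 50.6 CPM with tail suspension and 146 CPM without (log2 ratio -1.53). Acp5 in macrophages was thus below its level in lymphocytes with tail suspension and above it without. In neutrophils Acp5 was lower, at 14.7 CPM with tail suspension and 29.6 CPM without, at median depths of 5248.5 and 2907 UMIs. Atp6v0d2 was at 4.56 CPM in macrophages with tail suspension and 18.8 CPM without (-2.04), and at 0.712 CPM with tail suspension and 2.74 CPM without in lymphocytes. Ctsk ran the other way, at 221 CPM in macrophages with tail suspension and 72.3 CPM without (1.61). In collagen-producing cells, which express Ctsk themselves and were 5819 and 2060 cells, it was at 621 CPM with tail suspension and 831 CPM without. Mmp9 was also measured in neutrophils, at 648 CPM with tail suspension and 590.5 CPM without.

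The signals that drive osteoclast formation were measured in the other cells. Tnfsf11, which encodes RANKL, had 0 UMIs in the osteoclasts of both libraries, where 3 UMIs correspond to 27.7 CPM with tail suspension and 1.22 CPM without. In lymphocytes it was at 38.0 CPM with tail suspension (exact Poisson 95% interval 32.3 to 44.3) and 118 CPM without (107 to 130). In collagen-producing cells it was at 17.7 CPM with tail suspension (16.9 to 18.6) and 49.8 CPM without (47.9 to 51.7). Tnfrsf11b, the decoy receptor osteoprotegerin, was at 5.05 CPM with tail suspension and 5.29 CPM without in collagen-producing cells, with overlapping intervals (4.59 to 5.54 and 4.70 to 5.93). Csf1 was at 139 CPM with tail suspension and 87.3 CPM without in collagen-producing cells, and at 83.6 CPM with tail suspension and 324 CPM without in neutrophils. In C1q macrophages, which are of the lineage that RANKL acts on, Tnfrsf11a was at 53.6 CPM with tail suspension and 47.9 CPM without. These are levels of 1 library each, in which the kinds of lymphocyte and collagen-producing cell may differ.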

How the data were processed

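UMI counts per gene and barcode were deposited by the authors as 1 matrix per library, and every value is a whole number. Per the submitters' processing notes, the build is GRCm38 and the tools include Cell Ranger 5.0.1, with no role given. Whether the libraries were brought to equal depth is not given in the sources used here. Of 32285 gene IDs, 32235 matched the GENCODE annotation of GRCm38, which gave the gene positions.

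Kept barcodes had 300 or more genes and a mitochondrial share of 20% or less, and osteoclasts and C1q macrophages were chosen by shares of UMIs. The members, gene lists and settings were chosen with earlier results of these data known. Counts were summed per cell group and scaled to CPM, and log2 ratios were taken for genes with a mean of at least 20 CPM, leaving out the genes of the rule. A group with 0 UMIs was set to 3 UMIs. Named genes are the 15 largest ratios on each side among genes with at least 100 CPM and a UMI in at least 30% of cells of the higher group, plus list members with the highest level or the most extreme ratios and fixed markers; other list members in the text were chosen after their values were seen. Some genes that the rule names are not reported here. Intervals (95%, exact binomial or Poisson) cover counting error only. There is 1 library per group and cells are not replicates, so no p-value was computed. Lymphocytes had at least 0.1% of UMIs from T and B cell genes and at most 0.1% each from Lyz2 and C1q genes, neutrophils at least 1% from S100a8 and S100a9. Doublets were scored with Scrublet in scanpy 1.11.5 and removed as an alternative only: its automatic threshold called 492 cells with tail suspension and 0 without, so the highest scores up to the expected rate of 0.8% per 1000 barcodes were used. The ratio and its interval were tested on simulated counts. Python 3.11.15, numpy 2.4.6, scipy 1.17.1 and pandas 2.3.3 were used.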

Additional observations from a re-analysis of the deposited data

How the results depend on the processing

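The share of osteoclasts was lower with tail suspension than without under all 10 settings tried, but the count of 7 cells with tail suspension depends on the rule. It was 22 with gene limits of 0.05% (log2 ratio of shares -2.30), 3 with limits of 0.2%, 24 with no collagen limit (-2.03), 16 without the Ctsk limit, and 2 without cells that Scrublet called doublets (-5.38). The last result rests on a threshold set at the expected doublet rate. Genes past 2-fold higher and lower in osteoclasts numbered 528 and 506 with a minimum of 50 CPM, and 2361 and 2484 with no minimum beyond 1 UMI, where fewer or more genes entered. V-ATPase subunits past 2-fold higher stayed between 12 and 13 over 21 settings, oxidative phosphorylation subunits between 67 and 75, and macrophage identity genes past 2-fold lower between 16 and 21. Of the 30 genes named by ratio, 0 changed direction under the 21 settings, but sizes moved. For the thinned cells and the mean over cells this was fixed in advance, because naming required the same direction there. With cells thinned to 2000 UMIs, 3 of the 15 higher and 11 of the 15 lower genes moved by over 1.5 times (log2 ratios of the lower ones between -9.69 and -2.20), and with a mean over cells 3 and 5 did (between -7.73 and -2.65). Among the lower genes, Ccl12, Il18bp, Vcam1, Pld4, Ccl5, Ly86, P2ry6 and Tmem176b had 0 UMIs in the thinned osteoclasts. Serpind1 and Myo1d had 0 UMIs in the thinned macrophages. The thinned ratios of these genes are bounds set by the floor of 3 UMIs. The settings with at least 2000 UMIs, without mitochondrial UMIs, without the 6 Mki67-positive cells and with macrophages of at least 20000 UMIs were chosen after seeing the data. No paired analysis was possible because each group is 1 library. The 65 and 7 cells limit every value: in the 7 cells 3 UMIs already correspond to 27.7 CPM.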

Other observations

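Some genes that did not meet the limits for naming, on level or on share of cells, had ratios as large as those of the named genes. They were chosen after their values were seen. Scin, an actin-severing protein of the gelsolin family, had 130 UMIs in the osteoclasts of the non-tail suspension library and 1 UMI in its C1q macrophages, a log2 ratio of 9.84. Akap6, an anchoring protein of protein kinase A, had 218 UMIs in osteoclasts and 2 in macrophages (9.58), and Mt3, a metallothionein, had 101 in osteoclasts and 1 in macrophages (9.47). Ankrd2 had 116 UMIs in osteoclasts and 2 in macrophages (8.67), Spns2, an exporter of sphingosine 1-phosphate, had 113 in osteoclasts and 2 in macrophages (8.63), and Mst1r, the receptor of macrophage-stimulating protein, had 137 in osteoclasts and 3 in macrophages (8.33). Rufy4 had 217 UMIs in osteoclasts and 7 in macrophages (7.77). On the low side Cxcl13, a chemokine that attracts B cells, had 3 UMIs in osteoclasts and 16220 in macrophages (-9.59).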
